A study of Homo sapiens with 6 samples.

Results

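The miR-15/16 family was followed in small RNA libraries of MIO-M1, an established line of human Müller glia, supporting cells of the retina, and of the extracellular vesicles (EV) that these cells released in culture. The members were 10 mature miRNAs, taken by name from the deposited tables, out of 2576 that the tables list. They were hsa-miR-15a-5p, hsa-miR-15b-5p, hsa-miR-16-5p, hsa-miR-195-5p, hsa-miR-424-5p, hsa-miR-497-5p and hsa-miR-503-5p, and the opposite arms hsa-miR-15b-3p, hsa-miR-16-2-3p and hsa-miR-424-3p, written here without the species prefix. Whole cells were sequenced at passages 22, 24 and 26 and EV at passages 23, 25 and 27, numbered 1 to 3 in this order as the replicates of a group, and values of single libraries follow this order throughout. All samples were of wild-type genotype, from the same line and without a drug or transgene, and cells were grown with fetal calf serum before the medium was changed for EV collection. RNA of whole cells was isolated with an RNeasy kit. RNA of EV, treated with RNase before lysis according to the methods, was isolated with a Total Exosome RNA kit. No passage was sequenced in both groups, so that the fraction, the isolation and the passage cannot be told apart. The replicates are passages of a single line, so that p-values measure the spread between these passages.

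A miRNA is cut from a hairpin precursor whose arms, named 5p and 3p, can each give a mature strand of about the same length. One strand is loaded into an Argonaute protein and guides it to messenger RNAs, mainly through its seed, and the other strand is usually degraded. The miR-15/16 family is known for restraining the cell cycle and survival through targets such as the cyclins CCND1 and CCNE1 and the anti-apoptotic protein BCL2. Its precursors lie in pairs in the genome, and the precursors of a pair are usually transcribed together.

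The sequences show which members share a seed and which members can be mistaken for each other, and they are given from 5′ to 3′ with bases 2 to 8, the seed, in capitals (mature sequences from RefSeq, GRCh38.p14, matched by name for 10 of 10 members).
miR-16-5p: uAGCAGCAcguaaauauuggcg
miR-195-5p: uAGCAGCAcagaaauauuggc
miR-15a-5p: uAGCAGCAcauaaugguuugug
miR-15b-5p: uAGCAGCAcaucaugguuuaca
miR-497-5p: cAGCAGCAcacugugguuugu
miR-424-5p: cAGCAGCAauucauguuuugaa
miR-503-5p: uAGCAGCGggaacaguucugcag
miR-15b-3p: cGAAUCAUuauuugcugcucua
miR-16-2-3p: cCAAUAUUacugugcugcuuua
miR-424-3p: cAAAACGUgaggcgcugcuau

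The first 6 of these had the same seed. miR-503-5p shared bases 2 to 7 with them and differed from miR-16-5p within the seed by A8G, with positions counted from 1 at the 5′ end. The 3p arms each had a seed of their own. miR-16-5p and miR-195-5p were identical in 19 of 21 bases and differed by G10A and U11G, so that reads of the much more abundant miR-16-5p with sequencing errors could in principle be counted as miR-195-5p. miR-15a-5p and miR-15b-5p were identical in 18 of 22 bases, and miR-15b-5p and miR-16-5p in 14 of 22, with no difference in the seed. The tables hold 2 other miRNAs with the same bases 2 to 7, miR-646 and miR-6838-5p, and both had a count of 0 in all 6 libraries.

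The members came from 4 pairs of precursors, placed here on GRCh38 with GENCODE 29 genes. MIR15B (chr3:160404588-160404685) and MIR16-2 (chr3:160404745-160404825) lie 59 bases apart on the plus strand, both in an intron of SMC4, a condensin subunit gene. MIR15A (chr13:50049119-50049201) and MIR16-1 (chr13:50048973-50049061) lie 57 bases apart on the minus strand within the non-coding gene DLEU2, MIR16-1 in an intron and MIR15A overlapping an exon of 2 transcripts. MIR195 (chr17:7017615-7017701) and MIR497 (chr17:7017911-7018022) lie 209 bases apart on the minus strand in the non-coding gene MIR497HG, overlapping an exon of 1 of its 2 transcripts. MIR424 (chrX:134546614-134546711) and MIR503 (chrX:134546328-134546398) lie 215 bases apart on the minus strand, where MIR424 overlaps exons of MIR503HG and MIR503 lies in its intron. miR-16-5p is produced from both MIR16-1 and MIR16-2, and its count does not separate them, whereas miR-16-2-3p comes from MIR16-2 alone.

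The total count per library was 396025 to 3990900 for whole cells and 1225541 to 3134561 for EV. Levels are given as CPM, the count scaled to a fixed library total, and need no scaling for length because all members are 21 to 23 bases long. How well different miRNAs are captured by the library preparation was not tested, so the order of members is one of counts. Such a level is a share of the library, so that it also depends on the counts of all other miRNAs in that library. Whether fewer of the cells or vesicles carried a miRNA, or each carried less of it, cannot be told apart. Where nothing was counted, a level of up to 3 counts remains possible, which is 0.752 to 7.58 CPM in whole cells and 0.957 to 2.45 CPM in EV and covers counting error only. At least 1 count was found for 586, 1058 and 811 miRNAs in the whole cell libraries and for 431, 427 and 329 in the EV libraries. Between 1 and 9 counts were found for 298 to 541 miRNAs per whole cell library and for 25 to 44 per EV library. Of the Müller glia list (miR-9-5p, miR-125b-5p, miR-204-5p, miR-100-5p and let-7a-5p), 5 of 5 had counts in both groups, with a summed level of 242663 to 298671 CPM in whole cells and 132794 to 180893 CPM in EV. The sums were mostly let-7a-5p and miR-125b-5p, which with miR-204-5p ranged lower in EV. The others ranged higher in EV, miR-9-5p at 7471 to 12517 CPM in whole cells and 9271 to 22652 CPM in EV, and miR-100-5p at 5758 to 8532 CPM and 7677 to 22517 CPM. The neuronal miR-124-3p had a count of 0 in every library, and the photoreceptor list (miR-96-5p, miR-182-5p and miR-183-5p) summed to 227 to 333 CPM in whole cells and 1151 to 1218 CPM in EV. Of these, miR-96-5p was at 0, 44.6 and 0 CPM in the EV libraries. Among 430 miRNAs that reached 5 CPM in 3 or more libraries, the 10 members included, EV were set against whole cells with the quasi-likelihood test of edgeR, and p-values were adjusted by the method of Benjamini and Hochberg. A call needed an adjusted p under 0.01 together with a log2 fold change of 2.5 or more in either direction, and 5.81% of those tested were called, 1.40% as lower and 4.42% as higher in EV.

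miR-16-5p was the most abundant member in both groups, and miR-15b-5p was second in both. In whole cells their mean levels were 32624 ± 6948 CPM and 4269 ± 547 CPM (SD, n = 3), and no library of one overlapped with any library of the other. The next whole cell levels were those of miR-15a-5p at 281 ± 216 CPM, miR-503-5p at 196 ± 17.2 CPM and miR-15b-3p at 170 ± 91.6 CPM (SD, n = 3), which overlapped with each other. miR-424-3p, miR-497-5p and miR-195-5p followed at 76.7, 65.5 and 60.0 CPM, and they also overlapped. miR-424-5p and miR-16-2-3p had the lowest means, 16.8 and 10.9 CPM.

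In EV the distance between the first 2 places was wider. miR-16-5p stood at 104556 ± 17175 CPM and miR-15b-5p at 533 ± 159 CPM (SD, n = 3). The libraries of miR-15b-5p overlapped with those of miR-15a-5p, at 279 ± 185 CPM, which was not so in whole cells. Each lower place down to miR-16-2-3p also overlapped with the next, and miR-424-3p came last with no count.

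**Figure D1:**
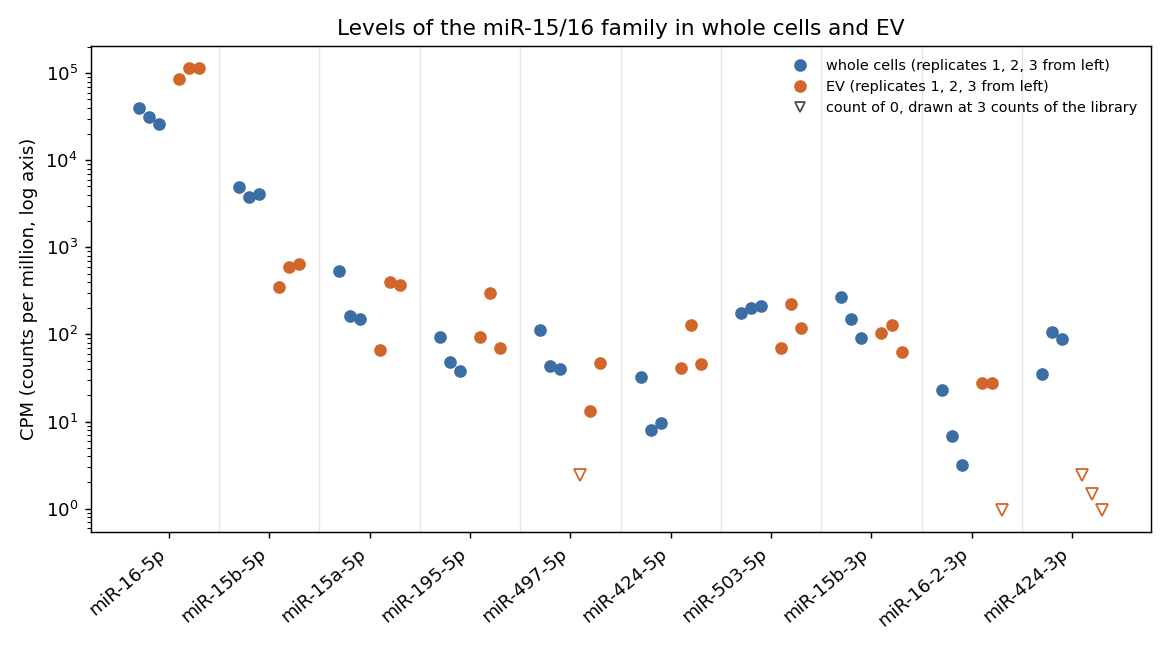
Level of each member in CPM (log axis) in the 3 whole cell and 3 EV libraries, with seed-sharing 5p members on the left, miR-503-5p next and 3p arms on the right; open triangles mark a count of 0, drawn at 3 counts of that library. EV points lie above all whole cell points for miR-16-5p and miR-424-5p, below them for miR-15b-5p and miR-424-3p, and overlap for the other 6 members.

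miR-15b-5p was the only member called by edgeR, and it was lower in EV, as were 1.40% of all tested miRNAs. It had 1933, 15273 and 5132 counts in whole cells, or 4881, 3827 and 4099 CPM. The EV libraries had 431, 1217 and 2034 counts, or 352, 597 and 649 CPM. The lowest whole cell library was thus well above the highest EV library, and the whole cell libraries lay close to each other although their depth differed. The log2 fold change was -3.00 ± 0.34 (standard error), a 7.99-fold lower level, with an adjusted p of 0.00308 (edgeR, Benjamini-Hochberg adjustment). With 1 library left out at a time it stayed between -3.33 and -2.92, and the call held in 4 of 6 fits. It was lost without whole cell replicate 3 (edgeR, adjusted p = 0.0108) and without EV replicate 2 (edgeR, adjusted p = 0.0160). In these same fits edgeR called 0 of all 430 miRNAs, with 121 and 169 at an unadjusted p below 0.05, and DESeq2 was not run on them.

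miR-16-5p, from the same SMC4 intron and also from the DLEU2 locus, was higher in every EV library than in any whole cell library. It made up 4.01%, 3.13% and 2.64% of the total count in the whole cell libraries and 8.47%, 11.5% and 11.4% in the EV libraries. By CPM it ranked 4, 7 and 9 among all miRNAs of the whole cell libraries, and 4, 2 and 1 in the EV libraries. This was a log2 fold change of 1.70 ± 0.33 (standard error), or 3.26-fold, with an adjusted p of 0.0109 (edgeR, Benjamini-Hochberg adjustment), which passed neither limit. DESeq2 gave 1.47 with an adjusted p of 6.98e-05 and the size of the change again stayed under the limit. Leaving out single libraries moved the log2 fold change between 1.48 and 1.73, and edgeR's adjusted p between 0.0130 and 0.0775.

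miR-16-5p is also abundant in blood cells and serum, so the list of blood and serum miRNAs is given beside it. Of 10 listed, 6 had counts in any whole cell library and 10 in any EV library. Their summed level was 265 to 1204 CPM in whole cells and 2205 to 3096 CPM in EV. The highest of the list was miR-486-5p, at 164, 875 and 1161 CPM in whole cells and 1217, 1711 and 1197 CPM in EV (edgeR, adjusted p = 0.487). miR-126-3p, at 30.3 to 93.4 CPM in whole cells and 427 to 693 CPM in EV, was called as higher (edgeR, adjusted p = 0.00661). miR-142-3p was called as higher too (edgeR, adjusted p = 0.00371). With 0, 0 and 1 counts in whole cells, it passed the filter through EV only. miR-451a and miR-122-5p were higher in EV with adjusted p of 0.0120 and 0.0124 (edgeR), over the limit of 0.01. Of all tested miRNAs, 4.42% were called as higher. miR-451a, miR-144-3p, miR-144-5p and miR-142-5p had no count in whole cells. In the EV libraries the erythroid miR-451a had 160, 69 and 424 counts, miR-144-3p 0, 18 and 0, and miR-144-5p 0, 0 and 192. The labels give serum-free medium for the collection of EV, where the methods give vesicle-depleted medium with a longer incubation and fewer washes. The part of such RNA in the level of miR-16-5p was not tested.

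Since a ratio of members within a library needs no scaling between libraries, 8 pairs of members were also compared as ratios, by exact permutation tests over the 6 libraries. Such a test with 3 libraries against 3 cannot give a p below 0.1, and after Benjamini-Hochberg adjustment over 8 pairs the smallest adjusted value was 0.114. The groups did not overlap for 7 of 8 pairs, where 46.5% of all pairs of tested miRNAs did not overlap. The 8 pairs share members and are not independent, and they were chosen with earlier results of these data known. The pair with miR-424-3p is set by its count of 0 in EV. No excess for the family is therefore read from these shares.

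The widest separation with counts in every library was that of miR-15b-5p and miR-16-5p. For each count of miR-15b-5p there were 8.22, 8.18 and 6.45 counts of miR-16-5p in the whole cell libraries. In the EV libraries there were 241, 192 and 176. The log2 ratio of miR-15b-5p to miR-16-5p was -2.92 ± 0.20 in whole cells and -7.65 ± 0.23 in EV (SD, n = 3), a difference of -4.73, or 26.6-fold, (two-sided exact permutation test, p = 0.1, adjusted p = 0.114). The spread within each group was far smaller than this difference, and with single libraries left out the difference ran from -4.83 to -4.60.

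**Figure D2:**
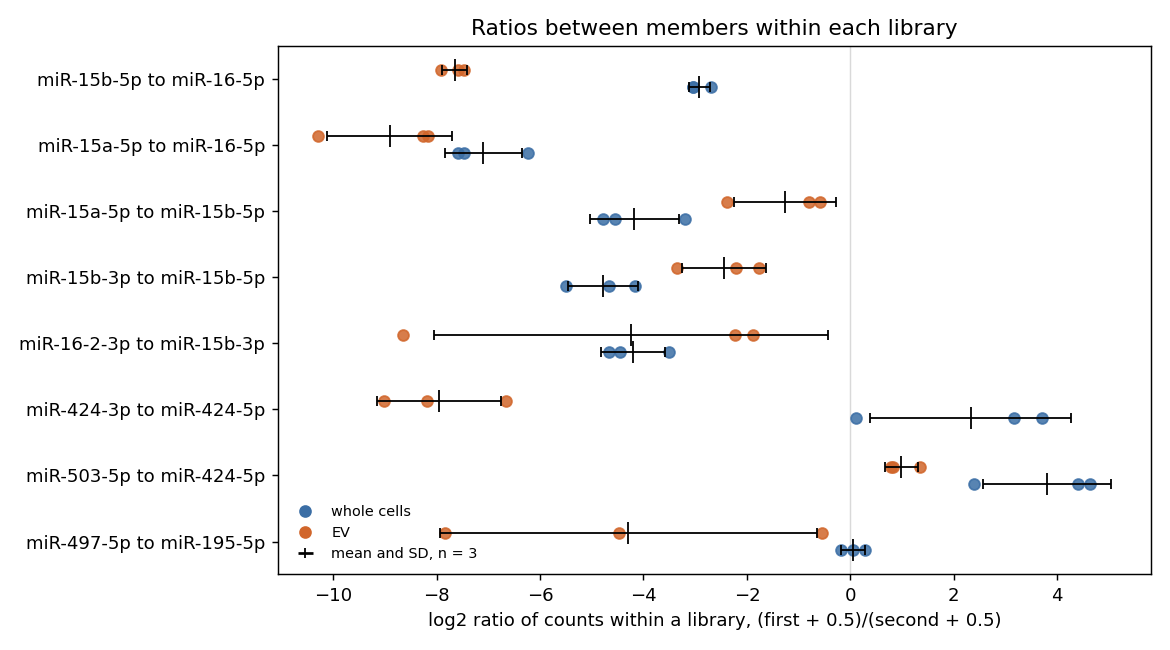
Log2 ratio of the counts of 2 members within each library, with 0.5 counts added to each, for the 8 pairs; points are libraries, black marks are the mean and SD of 3 libraries. The ratio of miR-15b-5p to miR-16-5p lies near -2.92 in whole cells and near -7.65 in EV with little spread, and only the ratio of miR-16-2-3p to miR-15b-3p overlaps between the groups; EV points of miR-424-3p, and those with a count of 0 in miR-497-5p or miR-16-2-3p, are set by the added 0.5.

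miR-15a-5p, which shares the DLEU2 locus with MIR16-1, did not follow miR-15b-5p. It stood at 530, 164 and 149 CPM in the whole cell libraries, and at 66.9, 400 and 372 CPM in the EV libraries. Both groups held high and low libraries and overlapped. The fitted log2 fold change of 0.06 ± 0.74 (standard error; edgeR, adjusted p = 0.978) changed sign with the scaling, to -0.25 with RLE factors. Relative to miR-15b-5p it was higher in EV, with 10.9, 4.28 and 3.64 counts per 100 of miR-15b-5p in the whole cell libraries and 19.0, 67.0 and 57.3 in the EV libraries. This log2 ratio differed by 2.92, or 7.55-fold (two-sided exact permutation test, p = 0.1, adjusted p = 0.114). Relative to miR-16-5p it was lower in EV by a log2 value of -1.81 (two-sided exact permutation test, p = 0.1, adjusted p = 0.114), and -1.12 without EV replicate 1.

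miR-15b-3p, the arm opposite miR-15b-5p on the same hairpin, did not pass the test as its partner did. It had 107, 600 and 113 counts in whole cells and 126, 264 and 199 counts in the EV libraries, or 170 ± 91.6 CPM and 98.6 ± 33.2 CPM (SD, n = 3). The groups overlapped, with a log2 fold change of -0.74 ± 0.64 (standard error; edgeR, adjusted p = 0.473). Per 100 counts of miR-15b-5p, miR-15b-3p had 5.54, 3.93 and 2.20 counts in whole cells and 29.2, 21.7 and 9.78 in the EV replicates. The 3p arm thus held a larger share in each EV library than in any whole cell library, and the log2 ratio differed by 2.34, or 5.06-fold (two-sided exact permutation test, p = 0.1, adjusted p = 0.114).

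miR-16-2-3p, the opposite arm of MIR16-2, had 9, 27 and 4 counts in whole cells and 34, 56 and 0 counts in the EV libraries. EV replicates 1 and 2 were at 27.7 and 27.5 CPM, above every whole cell library, while EV replicate 3 was at 0, the only library of the 6 without it. With a log2 fold change of 0.88 ± 1.72 (standard error; edgeR, adjusted p = 0.774), no direction can be given. Its ratio to miR-15b-3p, which comes from the same intron, overlapped between the groups (two-sided exact permutation test, p = 1, adjusted p = 1), and without EV replicate 3 the log2 ratio was higher in EV by 2.15.

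The arms of MIR424 differed from each other. miR-424-5p, with the family seed, was low in whole cells, with 13, 32 and 12 counts in replicates 1, 2 and 3, or 32.8, 8.02 and 9.58 CPM. In EV it had 50, 259 and 144 counts, or 40.8, 127 and 45.9 CPM. All EV libraries lay above all whole cell libraries, by the least between EV replicate 1 and whole cell replicate 1. The log2 fold change of 2.13 ± 1.04 (standard error) did not pass the test (edgeR, adjusted p = 0.192).

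The opposite arm miR-424-3p was counted 14, 424 and 111 times in whole cells, or 35.4, 106 and 88.6 CPM, and 0 times in all 3 EV libraries. Its mean of 76.7 CPM in whole cells was 47.2-fold higher than the mean limit that 3 counts per library allow in EV, 1.63 CPM. The lowest whole cell library was 14.4-fold above the highest such limit. These limits cover counting error only. For miR-542-3p, with 60, 367 and 0 counts in the EV libraries, a count of 0 lay beside high counts. The edgeR test of miR-424-3p gave an adjusted p of 0.0118, just over the limit of 0.01, and from 0.0135 to 0.0437 with single libraries left out, while DESeq2 called it with an adjusted p of 3.61e-08. With no count in EV, miR-424-3p passed the filter through whole cells only, so that its direction is no independent result of these tests. The whole cell libraries held 108, 1325 and 925 counts of the 3p arm per 100 of the 5p arm, so that the 3p arm was the more abundant in the cells, by little in replicate 1. The EV libraries held 0 of the 3p arm beside the counts of the 5p arm given above (two-sided exact permutation test of the log2 ratio, p = 0.1, adjusted p = 0.114).

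miR-503-5p, from the neighbouring precursor and with a seed that differs in the last base, was the most even member in whole cells, with 70, 801 and 263 counts in replicates 1, 2 and 3, or 177 to 210 CPM. In the EV libraries it was at 70.2, 224 and 117 CPM, so that EV replicate 2 lay above the whole cell libraries and the others below. Its log2 fold change was -0.60 ± 0.59 (standard error; edgeR, adjusted p = 0.526). The whole cell libraries held 538, 2503 and 2192 counts of miR-503-5p per 100 of miR-424-5p, and the EV libraries held 172, 176 and 256. miR-503-5p thus exceeded miR-424-5p in every library, by less in each EV library than in any whole cell library, and the log2 ratio differed by -2.82 (two-sided exact permutation test, p = 0.1, adjusted p = 0.114). Without whole cell replicate 1 the difference was -3.53.

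A list of 12 further arms and cluster neighbours was read beside the members. It held the opposite arms miR-15a-3p, miR-16-1-3p, miR-195-3p, miR-497-3p and miR-503-3p, and the arms of the MIR542, MIR450A and MIR450B precursors near MIR424 and MIR503. Of these, 6 passed the filter and 1 was called as higher in EV, against 4.42% of all tested miRNAs, and none as lower. That was miR-450b-5p, with 4, 33 and 10 counts in whole cells and 159, 443 and 669 in the EV libraries. Its log2 fold change was 4.40 ± 0.76 (standard error; edgeR, adjusted p = 0.00872). The call was kept without EV replicate 3 (edgeR, adjusted p = 0.00985) and lost without any of the other libraries, with adjusted p up to 0.0429. miR-503-3p, the opposite arm of miR-503-5p, had 4, 39 and 11 counts in whole cells and 0 in all EV libraries (edgeR, adjusted p = 0.0107). Its whole cell mean was 5.88-fold above the same mean limit, and its lowest whole cell library 3.59-fold above the highest limit. It passed the filter through whole cells only.

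Other arms were too low or too uneven to give a direction. miR-15a-3p and miR-16-1-3p had at most 3 counts in a whole cell library and 0 in EV, and miR-497-3p and miR-450b-3p had a count of 0 in all libraries. miR-195-3p was counted 5, 40 and 8 times in whole cells and 22, 0 and 0 times in EV. miR-542-3p had 60, 367 and 0 counts in the EV libraries, and miR-450a-5p had 0, 0 and 193.

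**Figure D3:**
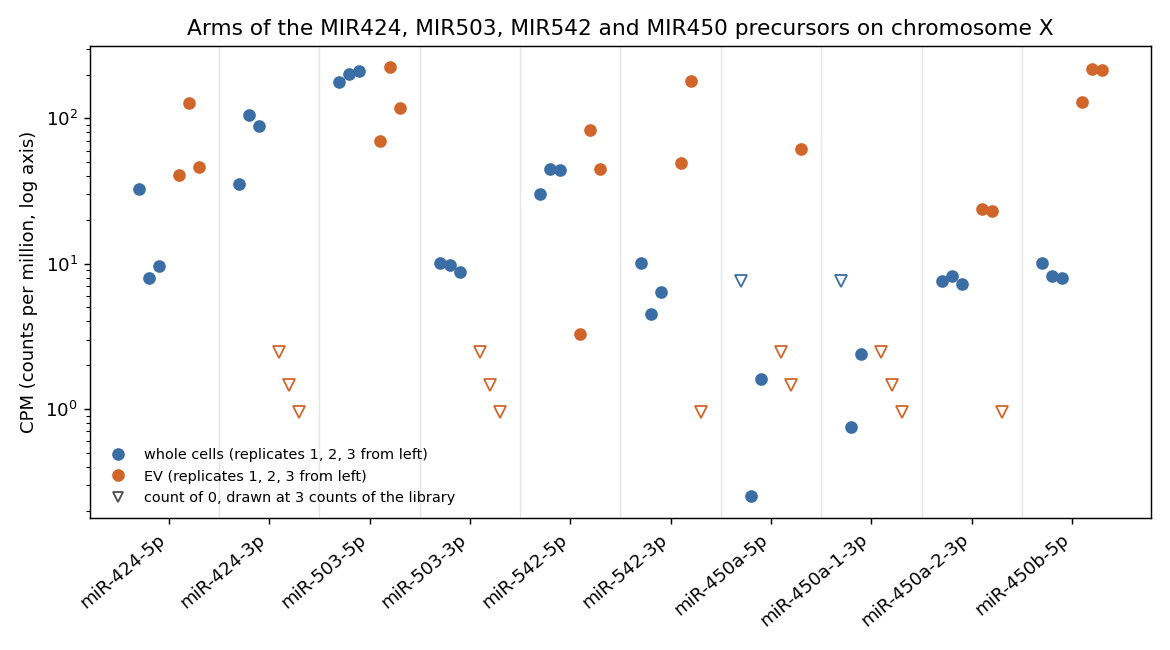
Level in CPM (log axis) of arms from the precursors near MIR424 on chromosome X in the 3 whole cell and 3 EV libraries; open triangles mark a count of 0, drawn at 3 counts of that library. miR-424-3p and miR-503-3p have counts in all whole cell libraries and none in EV, miR-450b-5p lies higher in all EV libraries, and miR-542-3p and miR-450a-2-3p have counts in EV replicates 1 and 2 but not in EV replicate 3.

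miR-195-5p and miR-497-5p, which share the MIR497HG locus, were present at nearly equal counts in whole cells. miR-195-5p had 37, 193 and 48 counts and miR-497-5p 45, 171 and 50 counts in these libraries, so that there were 122, 88.6 and 104 counts of miR-497-5p per 100 of miR-195-5p. In the EV libraries, counts were 114, 614 and 219 for miR-195-5p and 0, 27 and 149 for miR-497-5p. miR-497-5p was less abundant than miR-195-5p in every EV library, from 0 of 114 counts in replicate 1 to 68.0 per 100 in replicate 3. The difference of the log2 ratio was -4.35 (two-sided exact permutation test, p = 0.1, adjusted p = 0.114), and it was -2.57 without EV replicate 1 and -6.21 without EV replicate 3. With 5 counts added in place of 0.5 it was -3.17. Its size therefore rests on single EV libraries and on the added count, while its sign held in each of these alternatives.

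Neither member passed the test alone. The log2 fold change was 1.33 ± 0.78 (standard error; edgeR, adjusted p = 0.280) for miR-195-5p, whose levels overlapped at 93.4, 48.4 and 38.3 CPM in whole cells and 93.0, 301 and 69.9 CPM in EV. For miR-497-5p it was -1.55 ± 1.60 (standard error; edgeR, adjusted p = 0.548). There were 0.145 to 0.233 counts of miR-195-5p per 100 of its near-identical relative miR-16-5p in whole cells and 0.0611 to 0.263 in EV. Reads of miR-16-5p misassigned at such rates, across a difference of 2 adjacent bases (G10A and U11G), would equal the level of miR-195-5p. The part of such reads was not tested.

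Together, the 6 members with the shared seed made up 4.58%, 3.54% and 3.08% of the total count in the whole cell libraries and 8.53%, 11.6% and 11.5% in the EV libraries. The means were 3.73% ± 0.769 and 10.6% ± 1.76 (SD, n = 3), and all EV libraries lay above the whole cell libraries. Without miR-16-5p, the other 5 made up 0.469% ± 0.0840 of the count in whole cells and 0.106% ± 0.0456 in EV (SD, n = 3), in the opposite order. Without miR-15b-5p as well, the remaining 4 summed to 770, 263 and 237 CPM in whole cells and 200.7, 841 and 535 CPM in EV, which overlapped. miR-16-5p was 87.3% ± 1.30 of the shared-seed counts in whole cells and 99.0% ± 0.299 in EV, and miR-15b-5p was 11.6% ± 1.5 in whole cells and 0.496% ± 0.0764 in EV (SD, n = 3).

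Over the 10 members, 5 had a fitted log2 fold change above 0 and 5 below, with a median of -0.27, beside a median of -0.23 over all 430 tested miRNAs. RLE factors moved the median of all tested to -0.41 and removal of a GC trend moved it to 0.12, so that small values are to be read against these shifts. Of the 10, 1 was called, beside 5.81% of all tested. With the limit on the adjusted p at 0.05, edgeR called miR-15b-5p and miR-424-3p, both lower in EV, where it called 21.6% of all tested, 11.9% as higher and 9.77% as lower. DESeq2, at 0.01, called the same 2 members, where it called 16.7% of all tested, 9.77% as higher and 6.98% as lower. With an adjusted p below 0.05 by edgeR and no limit on the fold change there were 3, miR-16-5p as higher and miR-15b-5p and miR-424-3p as lower, beside 28.6% of all tested, 14.7% higher and 14.0% lower. Of these members, miR-424-3p had passed the filter through whole cells only. In CPM the groups did not overlap for 4 of 10 members, 2 in each direction, where they did not overlap for 48.4% of the tested miRNAs, 20.5% with EV above and 27.9% with EV below. As a group the members thus did not stand out in these counts, and their values lay on both sides of 0.

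**Figure D4:**
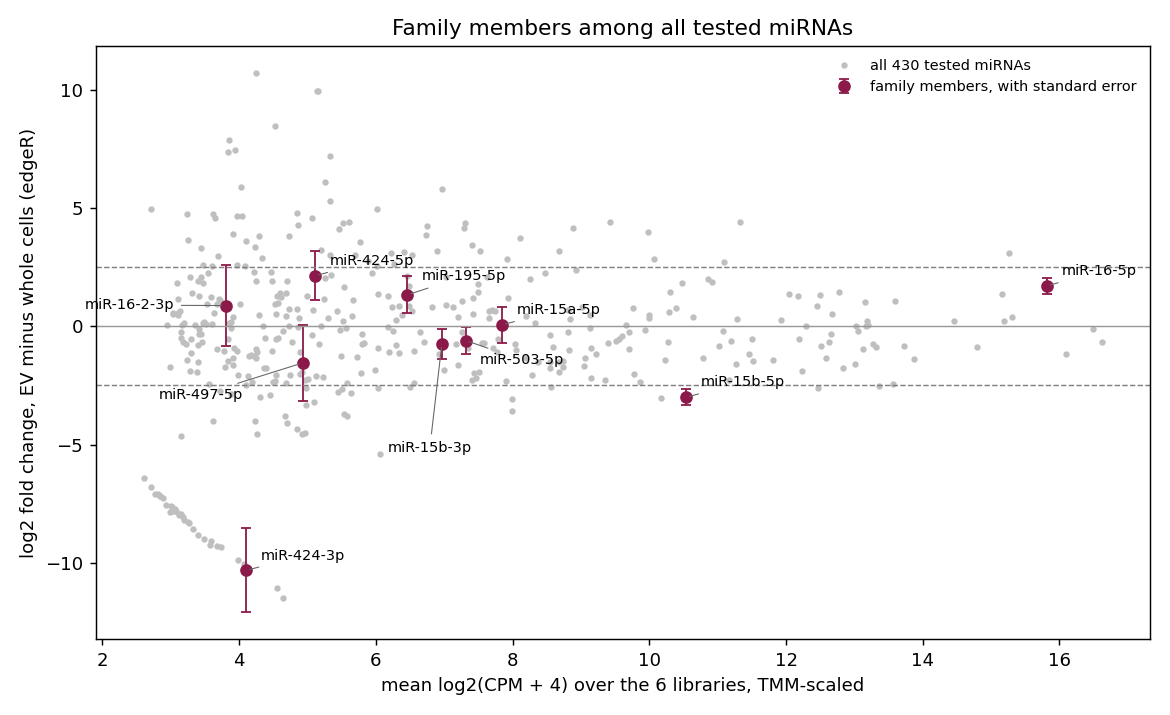
Log2 fold change of EV against whole cells from edgeR for all 430 tested miRNAs (grey) and the 10 members (dark, with standard error), over the mean log2(CPM + 4) of the 6 libraries; dashed lines mark 2.5 and -2.5. miR-15b-5p lies below the lower line at -3.00 and miR-16-5p at 1.70 with small errors, while the value of miR-424-3p, counted at 0 in all EV libraries, depends on the count that edgeR adds and is no measured size.

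Base composition moved with the fold change across the tested miRNAs. Over 390 of them with a mature sequence in RefSeq, the log2 fold change had Pearson's r of -0.35 and Spearman's rho of -0.42 with GC content, across miRNAs that were measured in the same 6 libraries and are not independent. The GC content was 40.9% for miR-15b-5p and for miR-15a-5p, 45.5% for miR-16-5p, 36.4% for miR-424-5p, and 52.4% for miR-424-3p and for miR-497-5p. It was highest in miR-503-5p at 56.5%. After a trend on GC content was removed from each library, miR-15b-5p was at -3.46 (edgeR, adjusted p = 0.00394) and miR-16-5p at 1.80 (edgeR, adjusted p = 0.0123), and miR-424-3p kept an adjusted p of 0.0132. Of the members that had not passed an adjusted p of 0.05, miR-195-5p was at 1.06, miR-424-5p at 1.18, miR-497-5p at -0.54 and miR-15b-3p at -1.77 (edgeR, adjusted p = 0.0506). miR-15a-5p at -0.28, miR-16-2-3p at -0.19 and miR-503-5p at 0.64 came to lie on the other side of 0. The call of miR-450b-5p was lost, with a log2 fold change of 2.14 (edgeR, adjusted p = 0.0798).

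**Figure D5:**
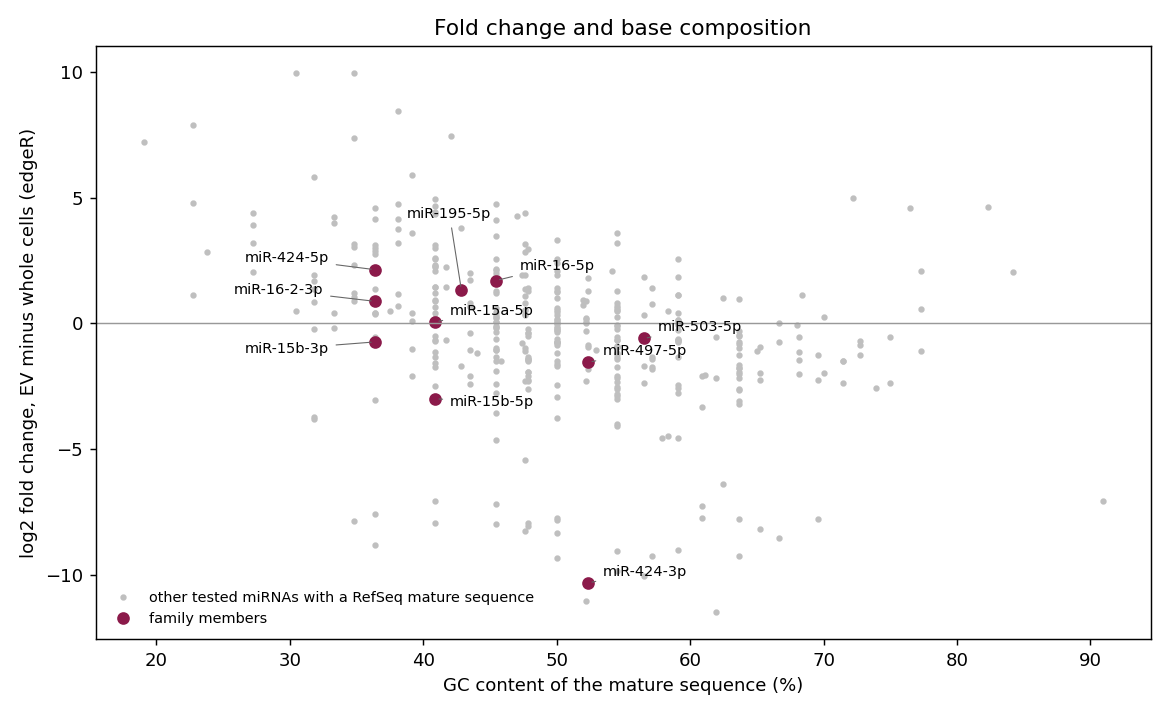
Log2 fold change of EV against whole cells (edgeR) over the GC content of the mature sequence in percent, for 390 tested miRNAs with a RefSeq sequence, the 10 members in dark. Fold changes tend to be lower at higher GC content, and miR-15a-5p and miR-15b-5p, both at 40.9%, lie at 0.06 and -3.00.

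The tested miRNAs with the most similar profile over the 6 libraries were found by the root mean square difference of centred log2(CPM + 4) values. For miR-16-5p these were miR-10a-5p with a difference of 0.17, miR-6126 with 0.20 and miR-182-5p, of the photoreceptor list, with 0.28. miR-10a-5p, at 424, 3861 and 968 counts in whole cells and 3882, 8065 and 12934 in the EV libraries, had a log2 fold change of 2.02 (edgeR, adjusted p = 0.00462), under the limit of 2.5. miR-6126 had 0, 1 and 0 counts in whole cells and 7, 11 and 26 in EV, so that it passed the filter through EV only. Its fitted log2 fold change was 4.97, beside 1.70 for miR-16-5p. Its whole cell values, and with them its closeness, are set by the 4 CPM that were added. For miR-15b-5p the nearest were miR-29c-5p with 0.40, miR-410-5p with 0.41 and miR-129-5p with 0.43, and for miR-424-3p they were miR-18a-3p with 0.48, miR-129-5p with 0.51 and miR-185-3p with 0.55. None of these was counted in EV, and each passed the filter through whole cells only, so that its EV values, and with them its closeness, are set by the added 4 CPM, whereas miR-15b-5p was counted in every EV library.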

How the data were processed

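The authors trimmed adapters with Cutadapt, aligned the reads to miRBase sequences and deposited raw read counts per mature miRNA, 1 table a library and without normalization. The file headers name featureCounts 1.5.0-p1 with strand setting 1, miRBase 20 and Bowtie 1, where the methods name Bowtie2 and another miRBase release. No genome build is named there, so coordinates and sequences are from RefSeq and GENCODE 29 (GRCh38).

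CPM were computed on each column total. The filter kept a miRNA that reached 5 CPM in 3 or more libraries. TMM factors and the quasi-likelihood test came from edgeR 4.0.16 in R 4.3.3, after a test on simulated data. DESeq2 1.42.0, other scalings and filters, removal of a GC trend (loess, span 0.75) and omission of each library were alternatives. Standard errors were the log2 fold change divided by the square root of the quasi-likelihood F. Ratios had 0.5 counts added and were compared by exact permutation of the group labels (20 arrangements). The labels give no pairing, and no libraries were copies (smallest chi-square per degree of freedom, 41.9). Members, lists and pairs were chosen with earlier results of these data known. The text names the 10 members, the listed arms and neighbours, miRNAs that share bases 2 to 7, and the 3 nearest profiles of miR-16-5p, miR-15b-5p and miR-424-3p.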

Additional observations from a re-analysis of the deposited data

How the results depend on the processing

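Over 12 alternative fits per member, 120 in all, 104 kept the direction and the side of the threshold. The call of miR-15b-5p was lost in the 2 fits named above, and miR-424-3p was called by DESeq2 and without the filter on low counts. The sign of miR-15a-5p was not stable, with -0.25 for DESeq2 and RLE factors, -0.0663 for upper-quartile factors, -0.00228 for library totals, -0.0828 without the filter, -0.28 with the GC trend removed and -0.37 to 0.54 with single libraries left out. With the GC trend removed, miR-16-2-3p was at -0.19 and miR-503-5p at 0.64. The number of members called was 2 with DESeq2, without the filter and at an adjusted p below 0.05, and from 0 to 1 with single libraries left out. The number of all miRNAs called was 72 with DESeq2, 38 with upper-quartile factors, 45 without the filter, 93 at an adjusted p below 0.05 and 0 to 31 with single libraries left out (edgeR, with 117 to 181 at an unadjusted p below 0.05). Of 61 alternative values of the ratios, 58 kept their sign, and the others were those of miR-16-2-3p to miR-15b-3p, at 0.57 with 5 counts added and from -1.23 to 2.15 with single libraries left out. A ratio with nothing added had no value for pairs with a count of 0. The cause of these changes was not tested. Whole cell replicate 1 had the lowest depth of the 6 libraries, and a count of 0 there allows up to 7.58 CPM.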
